A study of Danio rerio with 14 samples.

Results

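The zebrafish fibroblastic cell line ZF4 was compared with whole embryos at the blastula stage, gene by gene, on Affymetrix Zebrafish arrays. The comparison was set by the labels alone: the 2 arrays of ZF4 cells against the 2 arrays of untreated 4 hpf (hours post fertilization) embryos, 4 of 14 arrays, over the 15502 of 15617 probe sets that are not array controls. The remaining arrays held untreated embryos of 6 and 9 hpf and embryos given retinoic acid, and served to estimate the spread between replicates, to set the background level, to choose 1 probe set per gene and to give levels at later stages. Retinoic acid embryos of 4 hpf also replaced the untreated ones in 1 alternative. ZF4 is a single continuous line kept in culture, and its medium, passage and density were not given in the sources used here. The 4 hpf embryos were whole, had received no drug, and by the study's methods came from natural matings of the Ekkwill strain. The strain from which ZF4 came was not given in the sources used here. The 2 groups therefore differ in stage, cell types and culture at once, and may differ in genetic background. These cannot be told apart. Nothing in the labels says whether replicates came from separate cultures or clutches, so the p-values measure the spread between these arrays, which may be technical.

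Fibroblasts are connective tissue cells that secrete collagens and other matrix proteins, adhere through integrins and pull on their surroundings with actin stress fibres. The early fish embryo runs at first on RNA that the mother placed in the egg. Around the blastula stage its own genome is switched on, with pluripotency factors such as Nanog and Pou5f3 (the fish counterpart of Oct4) among the activators, and the maternal RNA is then cleared.

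Levels are given as log2 signal, in which a step of 1 is a doubling. Probe sets for bacterial tag sequences, which have no target in fish RNA, set a background level of 5.30 (their 95th percentile over all arrays). Where neither array of a group exceeded it, a fold change is given as a bound ("at least N-fold"), from the mean of the other group to the background level. Of the 15502 probe sets, 3661 were higher in ZF4 cells than in 4 hpf embryos (23.6%) and 4269 were lower (27.5%) by limma at an adjusted p under 0.05, together 51.2%. Counted with 1 probe set per gene, 2133 of 8793 genes were higher (24.3%) and 2852 were lower (32.4%). These shares are the background against which each gene list below is read. List counts cover only members with a probe set on the array. The lists were chosen with earlier results of these data known, so their counts are descriptions and not independent support. The groups did not overlap in 7929 of the 7930 called probe sets. With so few arrays per group, a called probe set will almost always have separate groups, so this count adds no support to the calls. The share without overlap over all 15502 probe sets was not set beside it. In these bulk samples, fewer cells of a type and less RNA per cell cannot be told apart.

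**Figure D1:**
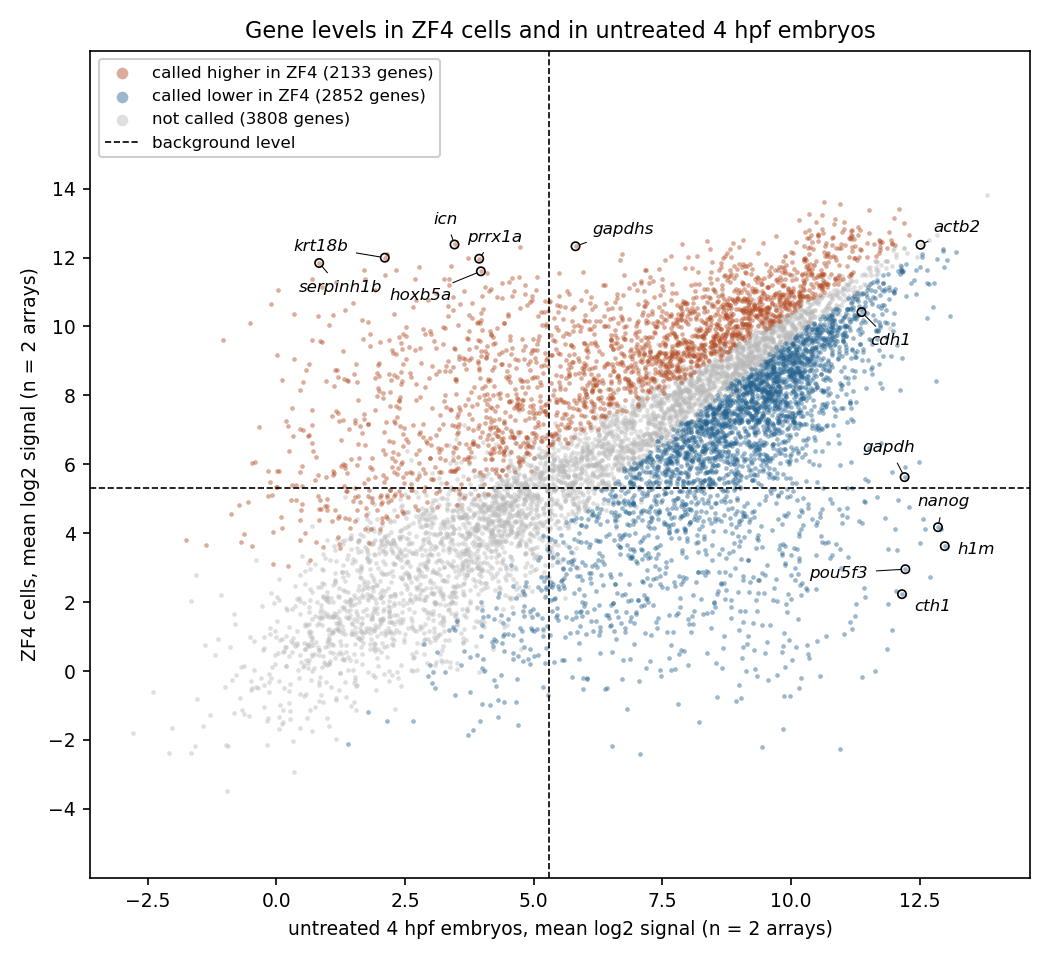
Mean log2 signal of each of 8793 genes in ZF4 cells (vertical axis, n = 2 arrays) against untreated 4 hpf embryos (horizontal axis, n = 2 arrays), with the background level of 5.30 as dashed lines. The upper left holds genes seen only in ZF4 cells, such as prrx1a and krt18b, and the lower right genes seen only in embryos, such as h1m and nanog.

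The arrays of a group resembled each other far more than those of the other group. Over all probe sets the 2 ZF4 arrays correlated at 0.952 and the 2 embryo arrays at 0.931, whereas a ZF4 and an embryo array correlated at 0.624 to 0.654. A total of 1444 probe sets were above background on both ZF4 arrays and on neither 4 hpf array, 1208 showed the reverse pattern, and 7121 were above background on all 4 arrays. A further 4139 of the 15502 probe sets were at or below background on all 4. List members at or below background in both groups are read beside that count, although it covers probe sets and not genes. The 4 hpf arrays were the less alike pair: for probe sets with a mean above 7 the median difference between replicates was 0.128 in ZF4 cells and 0.275 in 4 hpf embryos. Over the list of early zygotic and pluripotency genes replicate 2 of the embryos exceeded replicate 1 by a median of 0.96, against -0.10 over all genes. The part of this difference in the results was not tested, and values of both replicates are given throughout.

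Matrix genes set ZF4 cells apart from the blastula. Of 32 genes listed as defining markers of fibroblasts, 21 were measured. Of these 21, 16 were higher in ZF4 cells and 1 was lower. The median change was 5.77 on the log2 scale, against -0.18 over all genes. These medians include values below background. With changes bounded at the background level, over members with a measured or bounded fold change, the list median was 4.07. Col1a2, which encodes a chain of type I collagen, had 11.70 and 11.57 log2 signal in ZF4 cells and 4.22 and 0.45 in 4 hpf embryos, at least 80.8-fold higher (adjusted p = 6.7e-05). Its partner col1a1a had 11.59 and 11.53 in ZF4 cells against 5.36 and 5.64 in embryos, a change of 6.06 ± 0.34 (adjusted p = 6.3e-08). Col5a2a, a chain of the fibril-nucleating type V collagen, had 10.99 and 10.94 in ZF4 cells and 1.83 and 4.39 in embryos. For each of these 3 genes every ZF4 array was far above every embryo array by the probe set used. Every probe set annotated to them was called higher. The other probe set of col5a2a was at background in both groups, with an adjusted p of 0.049 by limma. Of the 18 measured collagens, 10 were at or below background in both groups. Among the 18, 7 were higher, including col6a3, col15a1a and col18a1a, and 0 were lower by limma (2 at an unadjusted p under 0.05). After adjustment 3 were lower when ZF4 replicate 2 was left out, 2 with quantile normalization and 1 without the intensity trend or against retinoic acid embryos.

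The machinery that folds and crosslinks collagen was called almost throughout. Of 15 genes of collagen modification and crosslinking, 12 were higher in ZF4 cells and 1 (tmem38b) was lower. The median change was 5.77, but only 1.74 with changes bounded at background. Serpinh1b, the collagen-specific chaperone Hsp47, had 11.81 and 11.87 in ZF4 cells and 0.73 and 0.94 in 4 hpf embryos, at least 93.0-fold higher (adjusted p = 2.7e-10). It was among the 15 named genes with the largest increases, and the embryo arrays differed by 0.21 log2 units. Plod1a, a lysyl hydroxylase, had 10.91 and 10.71 in ZF4 cells and 3.96 and 4.80 in embryos (at least 45.6-fold, adjusted p = 3.4e-06). The crosslinking oxidase gene loxl2b had 10.75 and 10.80 in ZF4 cells and 4.22 and 1.67 in embryos (at least 44.5-fold, adjusted p = 0.00015). Crtap, fkbp9 and p4ha2, which act on prolines of the collagen chain in the endoplasmic reticulum, were also higher, crtap by at least 32.9-fold, fkbp9 by at least 38.1-fold and p4ha2 by a change of 5.77 ± 0.57 with 1 of 2 embryo arrays above background.

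Secreted matrix proteins and the enzymes that remodel them followed, in part. Of 37 matrix glycoproteins and proteoglycans, 17 were higher and 4 were lower. Among the 37, 13 were at or below background in both groups. Sparc, a collagen-binding protein of remodelling matrix, had 11.66 and 11.61 in ZF4 cells and 0.87 and 2.54 in 4 hpf embryos, at least 80.4-fold higher (adjusted p = 2.7e-07). Periostin (postnb) had 10.73 and 10.76 in ZF4 cells and 5.12 and 5.52 in embryos, a change of 5.42 ± 0.41 (adjusted p = 5.2e-07). Thbs1b, thbs4b and ccn2a, encoding thrombospondins and connective tissue growth factor, were at or below background on both embryo arrays and at least 26.7-fold, 16.4-fold and 69.6-fold higher in ZF4 cells. The 4 lower members were lamc1, sdc4, has2 and hapln1a, and the count of lower members was 1 when ZF4 replicate 2 or embryo replicate 1 was left out. Of 15 matrix proteases and inhibitors, 8 were higher and 2 (adam10a and serpine2) were lower. Mmp2, gelatinase A, had 9.46 and 9.27 in ZF4 cells and 3.63 and 3.26 in embryos, at least 16.8-fold higher (adjusted p = 0.00044), and timp2b, encoding an inhibitor of matrix metalloproteases, had 8.90 and 8.83 in ZF4 cells against 3.21 and 3.40. The collagen-degrading protease gene ctsk had 11.22 and 11.08 in ZF4 cells and 3.50 and 4.61 in embryos, at least 57.7-fold higher (adjusted p = 1.9e-07).

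**Figure D2:**
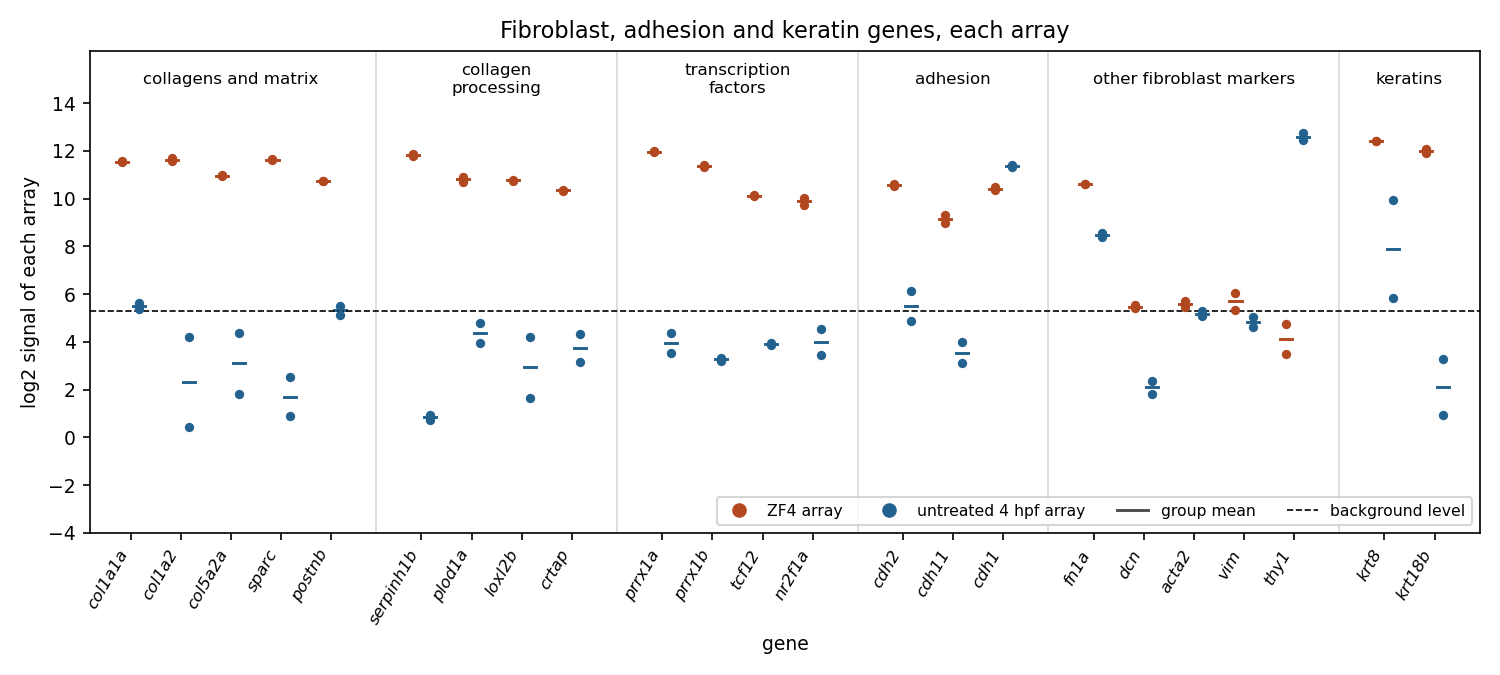
Log2 signal of each array for fibroblast, adhesion and keratin genes, with ZF4 arrays (left of each pair, n = 2) and untreated 4 hpf arrays (right, n = 2), bars at group means and the background level dashed. Collagen, collagen-processing and Prrx1 genes are near 10 to 12 in ZF4 cells and at or near background in embryos, vim and acta2 lie near background in both, and thy1 runs the other way.

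Not every textbook fibroblast marker was found. Thy1, which encodes a surface glycoprotein widely used to mark fibroblasts in mammals, had 4.75 and 3.48 in ZF4 cells, at or below background, and 12.73 and 12.47 in 4 hpf embryos, at least 158-fold lower in ZF4 cells (adjusted p = 8.2e-09). It rested on a single probe set. Vim, the mesenchymal intermediate filament gene vimentin, had 5.32 and 6.06 in ZF4 cells and 4.61 and 5.03 in embryos and was not called (change 0.87 ± 0.52, adjusted p = 0.19), although it was against retinoic acid embryos (adjusted p = 0.035). Acta2, the smooth muscle actin of activated fibroblasts, had 5.47 and 5.72 in ZF4 cells and 5.28 and 5.08 in embryos, also not called (adjusted p = 0.44). Decorin (dcn) was called higher, yet its ZF4 values of 5.40 and 5.56 lay just above background, against 2.37 and 1.81 in embryos. Fibronectin fn1a had 10.61 and 10.60 in ZF4 cells and 8.57 and 8.37 in embryos, a change of 2.13 ± 0.16 (adjusted p = 4.4e-07) by 1 of its 3 probe sets, and its other probe sets were at background in both groups.

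ZF4 cells also held high levels of simple epithelial keratins. Krt18b had 11.92 and 12.07 in ZF4 cells and 3.28 and 0.93 in 4 hpf embryos, at least 103-fold higher (adjusted p = 3.0e-06). Its filament partner krt8 had 12.40 and 12.41 in ZF4 cells and 5.83 and 9.94 in embryos, a change of 4.52 ± 1.02 (adjusted p = 0.0027), with embryo replicates 4.11 log2 units apart. A further keratin gene, krt18a.1, had 12.08 and 12.03 in ZF4 cells and 8.38 and 11.37 in embryos and was not called (adjusted p = 0.063). It was called without embryo replicate 2 (adjusted p = 0.0039), against retinoic acid embryos (adjusted p = 0.0086) and with the replicate number as a block (adjusted p = 0.043). Every ZF4 value of these keratins was above both embryo values, although only krt18b was at background in the blastula. The claudin cldni was at 9.12 and 8.76 in ZF4 cells and 2.17 and 3.46 in embryos, at least 12.5-fold higher (adjusted p = 0.00034).

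Several genes of epithelial junctions were lower in ZF4 cells. Of 69 genes of the enveloping layer (the outer epithelium of the fish blastula) and of epithelia, 26 were lower (37.7%) and 13 were higher (18.8%), shares near those over all genes. Epcam, an epithelial adhesion molecule, had 3.19 and 2.28 in ZF4 cells and 12.76 and 12.63 in 4 hpf embryos, at least 168-fold lower (adjusted p = 1.4e-10). The tight junction protein gene oclna (occludin) had 4.01 and 4.21 in ZF4 cells against 11.98 and 12.06 in embryos, at least 105-fold lower (adjusted p = 2.7e-10). For each of these genes the groups were far apart, and both ZF4 arrays were below background. The junctional adhesion molecule gene f11r.1 was at least 92.1-fold lower, the protease inhibitor gene spint1a at least 16.4-fold lower and the epithelial splicing regulator gene esrp2 at least 14.9-fold lower. In the shorter list of surface ectoderm and periderm markers, 9 of 19 were lower in ZF4 cells and 3 were higher, and 5 were higher when embryo replicate 2 was left out and 6 against retinoic acid embryos. Krt4 and lye, markers of the enveloping layer, had 6.55 and 6.27 and 5.25 and 5.42 in ZF4 cells, and their embryo replicates differed by 4.64 and 4.84 log2 units (5.56 and 10.20 for krt4 and 6.59 and 11.43 for lye).

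Cadherin genes differed between the groups, cdh2 and cdh11 being higher in ZF4 cells and cdh1 slightly lower. Cdh2, N-cadherin, had 10.55 and 10.64 in ZF4 cells and 4.89 and 6.13 in 4 hpf embryos, a change of 5.08 ± 0.31 (adjusted p = 1.1e-07) with 1 of 2 embryo arrays above background. Cdh11, a cadherin of mesenchyme, had 9.30 and 8.99 in ZF4 cells and 3.98 and 3.10 in embryos, at least 14.4-fold higher (adjusted p = 0.0025). Cdh1, the E-cadherin of the blastula, was lower in ZF4 cells by a small margin, with 10.34 and 10.49 in ZF4 cells and 11.41 and 11.32 in embryos (change -0.95 ± 0.16, adjusted p = 0.00036). Cdh1 thus stayed well above background in the line.

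Cytoskeletal and adhesion genes were mostly higher. Of 52 genes of the actin and contractile cytoskeleton, 31 were higher and 7 were lower (4 without ZF4 replicate 2). Actn1, the actin crosslinker alpha-actinin, had 11.20 and 11.23 in ZF4 cells and 3.75 and 2.93 in 4 hpf embryos, at least 60.3-fold higher (adjusted p = 6.2e-07). Tagln2, encoding the actin-binding protein transgelin, had 11.56 and 11.52 in ZF4 cells and 1.16 and 7.04 in embryos, a change of 7.44 ± 1.37 (adjusted p = 0.00067). The embryo replicates of tagln2 were on either side of background, so its size is poorly fixed. Tpm4a (tropomyosin), flncb (filamin) and tmsb2 (a thymosin that binds actin monomers) were at least 59.7-fold, 49.6-fold and 57.7-fold higher. Cfl1l, which belongs to the actin-severing cofilin family, went the other way, with 2.93 and 1.35 in ZF4 cells and 11.45 and 11.41 in embryos, at least 69.9-fold lower (adjusted p = 4.2e-09). Beta-actin (actb2) had 12.37 and 12.37 in ZF4 cells and 12.58 and 12.44 in embryos and was not called (adjusted p = 0.15), although it was called lower with quantile normalization (adjusted p = 0.0073). Of 16 integrin and focal adhesion genes, 9 were higher and 2 were lower. Itga6b, a laminin-binding integrin subunit, was at least 13.4-fold higher, and ptk2aa, focal adhesion kinase, at least 10.3-fold higher, whereas the talin gene tln2a was at least 5.86-fold lower. The other probe set of ptk2aa was at background in both groups and was not called. Of 15 genes of intermediate filaments, lamins and caveolae, 5 were higher and 4 were lower, and the 5 became 3 without either ZF4 replicate and 2 without embryo replicate 2. Cav1, the coat protein of caveolae, had 9.47 and 9.38 in ZF4 cells and 4.36 and 3.84 in embryos, at least 17.4-fold higher (adjusted p = 1.1e-05). A further probe set of cav1 was at background in both groups and was not called.

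Transcription factors of mesenchyme gave a mixed list with a few very large members. Of 62, 30 were higher and 13 were lower, the 13 falling to 7 without ZF4 replicate 2 and to 8 without embryo replicate 1 or over probe sets above background. Prrx1a, a homeobox factor of limb and head mesenchyme, had 11.99 and 11.94 in ZF4 cells and 3.52 and 4.36 in 4 hpf embryos, at least 101-fold higher (adjusted p = 3.8e-07). Its paralogue prrx1b had 11.43 and 11.34 in ZF4 cells and 3.31 and 3.21 in embryos, at least 67.8-fold higher (adjusted p = 2.6e-05). Tcf12, an E protein that pairs with Twist and MyoD factors, and nr2f1a, an orphan nuclear receptor, were at least 28.5-fold and 24.1-fold higher. Tbx2b had 10.81 and 10.88 in ZF4 cells and 6.74 and 5.50 in embryos, a change of 4.73 ± 0.53 (adjusted p = 1.4e-05). Among the lower members were snai1a, snai2 and snai3, the Snail repressors known from epithelial-mesenchymal transition. Snai2 had 7.42 and 7.22 in ZF4 cells and 9.24 and 10.79 in embryos (change -2.70 ± 0.50, adjusted p = 0.00074). Klf2a, a Krüppel-like factor, had 5.60 and 4.99 in ZF4 cells and 9.19 and 10.15 in embryos, a change of -4.38 ± 0.34 (adjusted p = 6.5e-07).

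Hox genes, which give cells a position along the body axis, were at background in both groups for the most part, and a block of them was high in the line. Of 42 measured hox genes, 29 were at or below background in both groups, 9 were above background on both ZF4 arrays, and 1 was above background on both 4 hpf arrays. By the test 11 were higher in ZF4 cells (26.2%, near the 24.3% over all genes) and 1 (hoxd13a) was lower. Not all of the 11 were above background on both ZF4 arrays. The call of hoxd13a was lost when any 1 of the 4 arrays was left out, with the replicate number as a block (adjusted p = 0.060), with a common median and on the log2(value + 32) scale. Hoxb5a had 11.61 and 11.59 in ZF4 cells and 4.03 and 3.91 in 4 hpf embryos, at least 78.7-fold higher (adjusted p = 4.8e-07). Hoxb6a had 11.32 and 11.29 in ZF4 cells and 0.93 and 1.38 in embryos, at least 64.1-fold higher (adjusted p = 2.0e-07). Hoxb3a and hoxb4a, which lie beside them in the same cluster, had 9.78 and 9.93 and 9.25 and 9.53 in ZF4 cells against 3.50 and 4.80 and 3.77 and 3.98 in embryos, at least 23.5-fold and 17.0-fold higher. The run of hoxb genes above background ended there: hoxb7a, hoxb8a, hoxb9a and hoxb10a, with 4.68 and 5.02, 4.96 and 3.68, 2.84 and 3.72 and 3.95 and 4.38 in ZF4 cells, were at or below background in both groups by the probe sets used (a further probe set of hoxb7a was called higher), and so was hoxb1a at 3.68 and 4.33. Hoxb2a had 6.78 and 6.23 in ZF4 cells and 4.76 and 4.69 in embryos and was not called (adjusted p = 0.10) by the probe set used, although it was with the 4 arrays alone (adjusted p = 0.015) and on the log2(value + 32) scale (adjusted p = 0.023). Its other probe set was called higher, though at background in both groups. From the hoxa cluster hoxa1a, hoxa3a and hoxa4a were at least 1.83-fold, 6.29-fold and 8.15-fold higher. Hoxc9a, at 5.77 and 5.53 in ZF4 cells, barely cleared background, against 3.57 and 1.96 in embryos, and its call was lost without ZF4 replicate 1 or embryo replicate 2.

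**Figure D3:**
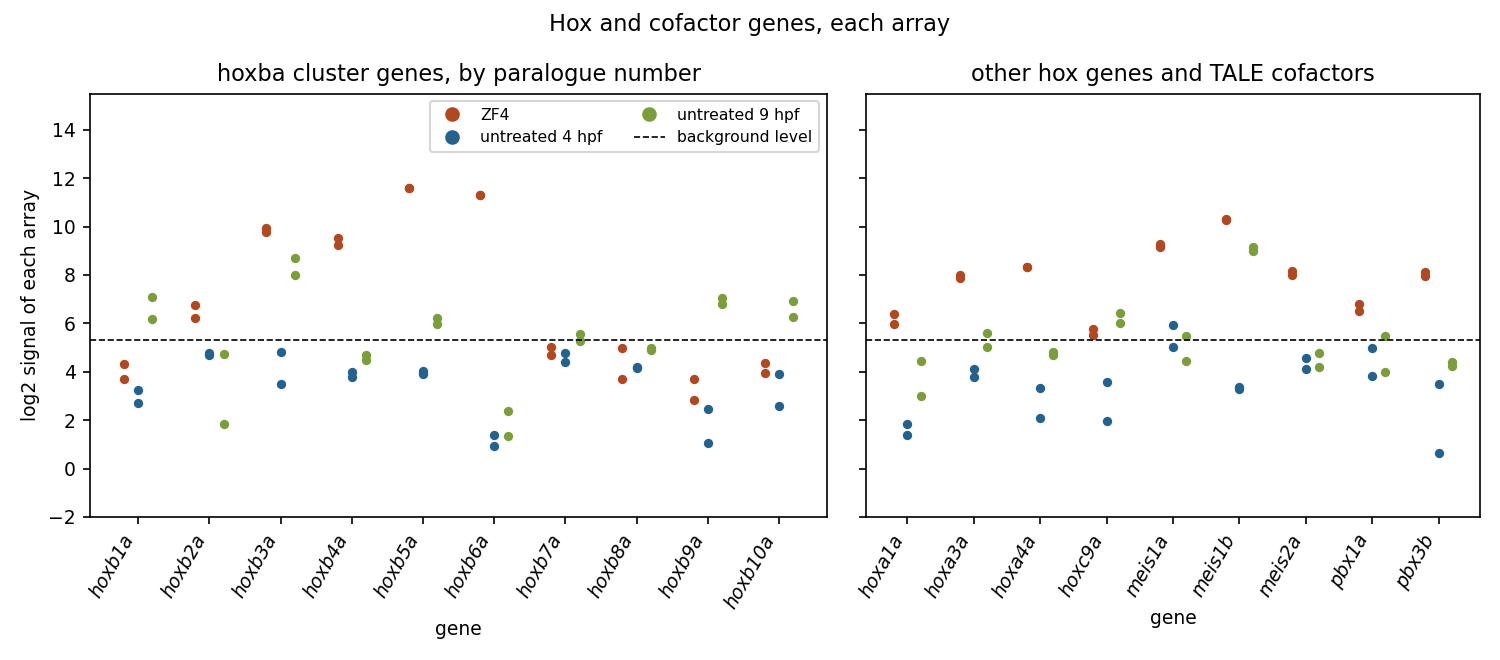
Log2 signal of each array for genes of the hoxba cluster in order of paralogue number (left panel) and for other hox genes and TALE cofactors (right panel), in ZF4 cells, untreated 4 hpf embryos and untreated 9 hpf embryos (n = 2 arrays each), with the background level dashed. In ZF4 cells hoxb3a to hoxb6a stand above 9 and hoxb7a to hoxb10a at or below background, whereas in 9 hpf embryos hoxb1a, hoxb3a, hoxb5a, hoxb9a and hoxb10a are above background.

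Of the 9 hox genes above background on both ZF4 arrays, hoxb3a, hoxb5a and hoxc9a were also above it on both untreated 9 hpf arrays, which had further hox genes above background. In them hoxb1a, hoxb9a and hoxb10a averaged 6.63, 6.92 and 6.58, and hoxb6a, which was called higher in ZF4 cells than at 4 hpf, averaged 1.86. Of 20 TALE homeobox genes, whose products bind DNA together with Hox proteins, 6 were higher and 4, all of the irx family, were lower (1 over probe sets above background). Meis1b had 10.33 and 10.27 in ZF4 cells and 3.38 and 3.28 in 4 hpf embryos, at least 31.9-fold higher (adjusted p = 5.3e-05). Meis1a had 9.18 and 9.27 in ZF4 cells and 5.02 and 5.92 in embryos, a change of 3.75 ± 0.52 (adjusted p = 8.0e-05). Meis2a and pbx3b were at least 6.86-fold and 6.74-fold higher, and irx7 at least 17.9-fold lower.

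Genes of skeletal and cardiac muscle were measured to check for other cell types, and 13 of the 24 were at or below background in both groups. Of 24 skeletal and cardiac muscle genes, 9 were above background on both ZF4 arrays but not on both embryo arrays. By the test 9 were called higher and 1 (tnnt2a) was lower. The call of tnnt2a was lost without ZF4 replicate 1 or embryo replicate 1 and against retinoic acid embryos, and tnnt2a was at background in both groups. Myod1, the transcription factor that commits cells to skeletal muscle, had 8.93 and 8.88 in ZF4 cells and 2.38 and -1.09 in 4 hpf embryos, at least 12.2-fold higher (adjusted p = 0.00012). Myf5, a related factor, had 7.24 and 7.10 in ZF4 cells and 3.55 and 2.92 in embryos (adjusted p = 0.014), and lost its call without either ZF4 replicate or embryo replicate 2. The myosin heavy chain gene myh7 had 8.45 and 8.44 in ZF4 cells and 0.09 and 0.12 in embryos, at least 8.83-fold higher (adjusted p = 0.00012). The ZF4 replicates of myod1, myf5 and myh7 differed by 0.042, 0.134 and 0.014 log2 units. Ckma (muscle creatine kinase) had 7.65 and 7.35 in ZF4 cells and 5.30 and 4.67 in embryos, and titin (ttn.2) was at least 5.77-fold higher by the probe set used, with 2 of 4 probe sets of the gene not called. The untreated 9 hpf embryos averaged 6.37 for myod1 and 2.86 for myh7.

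Markers of other lineages were also counted. At or below background in both groups were 17 of 26 neural, 21 of 26 blood, 6 of 14 cartilage and 19 of 29 endoderm genes, against 4139 of all 15502 probe sets. Of 26 neural and neural crest genes, 3 were higher (11.5%) and 3 were lower (11.5%). Of 26 blood and endothelial genes 3 were higher (11.5%) and 2 were lower (7.7%). Over all genes the shares were 24.3% higher and 32.4% lower. The 3 higher neural genes became 1 without ZF4 replicate 2 or embryo replicate 1, the 3 higher blood genes became 1 without either ZF4 replicate or embryo replicate 2, and the 2 lower blood genes became 1 without ZF4 replicate 2 and 4 without embryo replicate 1. Over probe sets above background 1 neural gene was higher and 1 was lower, and no higher blood gene passed both that filter and the test. Against retinoic acid embryos 5 neural genes were higher and 1 was lower. Ptprc, the leukocyte antigen CD45, had 3.90 and 3.60 in ZF4 cells and 7.44 and 6.70 in 4 hpf embryos, at least 3.41-fold lower (adjusted p = 0.00030). Of 14 cartilage and bone genes, 5 were higher and 2 were lower (1 without embryo replicate 1, and 3 higher and 1 lower over probe sets above background). They include sparc and the phosphatase gene alpl, which had 8.31 and 8.06 in ZF4 cells and 5.76 and 6.24 in embryos. Sox9a, the cartilage master factor, had 7.33 and 7.76 in ZF4 cells and 1.09 and 1.24 in embryos, at least 4.73-fold higher (adjusted p = 3.9e-05). Of 29 genes of endoderm, liver and yolk layer, 1 was higher (0 to 3 under the alternatives, 2 without embryo replicate 1 and 0 without embryo replicate 2) and 5 were lower (3 with the 4 arrays alone and 1 over probe sets above background). Apoeb, an apolipoprotein of the yolk layer, had 4.73 and 1.66 in ZF4 cells and 9.05 and 11.26 in embryos, at least 28.9-fold lower (adjusted p = 3.1e-05).

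Growth factor genes were higher more often than lower. Of 44 measured genes of growth factor and TGF-beta signalling, 24 were higher and 3 (igf2a, smad2 and hbegfb) were lower, and the 3 became 1 without ZF4 replicate 2. Fgfr2, a fibroblast growth factor receptor, had 10.27 and 9.93 in ZF4 cells and 3.97 and 3.82 in 4 hpf embryos, at least 27.8-fold higher (adjusted p = 2.6e-07). The platelet-derived growth factor gene pdgfab had 9.96 and 10.01 in ZF4 cells and 2.71 and 3.77 in embryos, at least 25.7-fold higher (adjusted p = 1.3e-05). Within the insulin-like growth factors igf2b was at least 21.1-fold higher, at 9.79 and 9.60 in ZF4 cells and 4.49 and 3.91 in embryos, while igf2a was lower, at 4.42 and 4.35 in ZF4 cells and 6.04 and 7.82 in embryos. The binding protein gene igfbp5b was at least 31.9-fold higher. Stc2a, encoding the secreted hormone stanniocalcin, ranked among the highest changes of all, at 12.09 and 12.14 in ZF4 cells and 4.02 and 0.26 in embryos (at least 112-fold, adjusted p = 3.9e-06).

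Immediate early genes of the AP-1 family, which serum and stress induce in cultured cells, were higher as well. Of 38 measured genes in that list, 22 were higher and 6 were lower. Junba had 11.40 and 11.48 in ZF4 cells and 5.38 and 4.76 in 4 hpf embryos, a change of 6.37 ± 1.37 (adjusted p = 0.0019) with 1 of 2 embryo arrays above background. Jun had 11.32 and 11.10 in ZF4 cells and 5.80 and 6.90 in embryos, a change of 4.86 ± 0.54 (adjusted p = 1.4e-05). Fosl1b and fosl2, Fos-related partners of Jun, were at least 29.8-fold and 22.2-fold higher. Zfp36l1b, which marks AU-rich messages for decay, had 11.02 and 11.06 in ZF4 cells and 3.77 and 3.52 in embryos, at least 53.2-fold higher (adjusted p = 1.4e-06).

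Antigen presentation genes formed another group. Of 52 innate immune, NF-kB and interferon genes, 30 were higher and 4 were lower. Their median change was 2.87 (2.38 with changes bounded at background). B2m, the light chain of MHC class I, had 11.49 and 11.64 in ZF4 cells and 5.44 and 6.47 in 4 hpf embryos, a change of 5.61 ± 0.43 (adjusted p = 6.3e-07). The class I heavy chain gene mhc1zba had 10.95 and 11.09 in ZF4 cells and 5.29 and 6.02 in embryos, a change of 5.36 ± 0.38 (adjusted p = 3.4e-07). A further class I gene, mhc1ufa, was at 11.71 and 11.79 in ZF4 cells and 2.95 and 3.83 in embryos, at least 87.3-fold higher (adjusted p = 0.00017). MHC genes differ between zebrafish strains, and the part of strain in these values was not tested. Irf1b, an interferon-responsive transcription factor, had 9.97 and 10.04 in ZF4 cells and 5.54 and 4.91 in embryos, a change of 4.78 ± 0.68 (adjusted p = 9.7e-05). Socs3a, a feedback inhibitor of cytokine signalling, had 10.71 and 10.73 in ZF4 cells and 5.68 and 4.75 in embryos, a change of 5.51 ± 0.43 (adjusted p = 7.0e-07). The catalytic subunit gene psmb8a of the immunoproteasome, which cuts peptides for class I presentation, had 9.71 and 9.52 in ZF4 cells and 5.62 and 5.11 in embryos, a change of 4.25 ± 0.89 (adjusted p = 0.0016). Its constitutive counterpart psmb5 changed less, by 1.18 ± 0.14 (adjusted p = 2.4e-05), with 10.62 and 10.52 in ZF4 cells and 9.34 and 9.45 in embryos.

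Among metabolic genes the clearest pattern was an exchange between 2 forms of glyceraldehyde 3-phosphate dehydrogenase, an enzyme of glycolysis. Gapdhs had 12.34 and 12.31 in ZF4 cells and 6.09 and 5.54 in 4 hpf embryos, a change of 6.52 ± 0.34 (adjusted p = 3.4e-08). Gapdh had 5.38 and 5.87 in ZF4 cells and 12.21 and 12.19 in embryos, a change of -6.57 ± 0.17 (adjusted p = 2.6e-10). The groups did not overlap for either gene. The 3 GAPDH control probe sets that the array carries, which were left out of the tests, had 12.02 to 12.33 in ZF4 cells and 5.66 to 6.67 in embryos. Of all 52 genes of glycolysis, lactate and hypoxia, 21 were higher and 15 were lower. Hk1 (hexokinase) and pfkpa (phosphofructokinase) were at least 44.4-fold and 52.8-fold higher, and eno1a (enolase) had 11.97 and 11.88 in ZF4 cells and 7.63 and 7.45 in embryos, a change of 4.38 ± 0.41 (adjusted p = 3.0e-06). A further probe set of hk1 was at background in both groups and was not called. Lactate dehydrogenase ldha had 10.88 and 10.98 in ZF4 cells and 6.60 and 4.77 in embryos, a change of 5.25 ± 0.70 (adjusted p = 5.6e-05).

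Lipid and redox genes were higher more often than lower. Of 36 cholesterol and lipid genes, 14 were higher and 4 were lower. Msmo1, an enzyme of sterol synthesis, had 10.88 and 10.81 in ZF4 cells and 4.25 and 2.62 in 4 hpf embryos, at least 46.7-fold higher (adjusted p = 7.5e-05). Fads2, a fatty acid desaturase, had 11.13 and 11.01 in ZF4 cells and 4.63 and 5.44 in embryos, a change of 6.03 ± 0.55 (adjusted p = 2.4e-06). Elovl7a, a fatty acid elongase, was instead at least 29.1-fold lower. Of 43 genes of oxidative stress and iron, 19 were higher and 8 were lower. The thioredoxin gene txnb had 11.65 and 11.79 in ZF4 cells and 3.77 and 1.78 in embryos, at least 85.3-fold higher (adjusted p = 0.00060). The peroxiredoxin gene prdx5 had 10.98 and 11.06 in ZF4 cells and 5.34 and 3.88 in embryos, a change of 6.41 ± 0.57 (adjusted p = 2.1e-06). Ahr2, the receptor for dioxin-like compounds, was at 9.27 and 9.07 in ZF4 cells and 0.43 and -0.41 in embryos, at least 14.6-fold higher (adjusted p = 0.00037).

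Of 37 heat shock proteins and chaperones, 25 were higher and 6 were lower. Hsp90aa1.1, a stress-inducible Hsp90, had 10.35 and 10.36 in ZF4 cells and 4.30 and 4.70 in 4 hpf embryos, at least 33.2-fold higher (adjusted p = 1.1e-07). The small heat shock protein gene hspb8 was at least 41.2-fold higher, but hspb1 was lower, at 6.37 and 5.90 in ZF4 cells and 8.83 and 11.13 in embryos. Of 68 secretory pathway genes, 23 were higher and 14 were lower, with a median change of 0.11. Both atf4a and atf4b, translation-controlled stress factors, were higher, by 4.19 ± 0.43 and 4.82 ± 0.65 (adjusted p = 6.6e-06 and 5.9e-05). Among the lower members, calr was at least 12.2-fold lower by the probe set used (adjusted p = 4.3e-06), and its other probe set was not called. Dnajb11 was also lower, with a change of -3.33 ± 0.37 (adjusted p = 1.3e-05). Of 44 lysosome and autophagy genes, 14 were higher and 10 were lower, and the largest changes went in both directions. Ctss2.1, a cathepsin S, was at 3.98 and 4.86 in ZF4 cells and 12.87 and 12.27 in embryos, at least 154-fold lower (adjusted p = 0.00010), whereas cd63, a protein of late endosomes, was at 11.90 and 11.95 in ZF4 cells and 6.69 and 6.67 in embryos, a change of 5.25 ± 0.24 (adjusted p = 1.5e-08). Of 29 p53 target and DNA damage genes, 9 were higher and 10 were lower.

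Genes of the basic machinery of growth were shifted almost as blocks. Of 71 cytosolic ribosomal protein genes, 70 were higher in ZF4 cells and 0 were lower by limma (0 also at an unadjusted p under 0.05), with a median change of 1.79. Rplp2, a protein of the ribosomal stalk, had 12.07 and 12.01 in ZF4 cells and 8.17 and 8.17 in 4 hpf embryos, a change of 3.87 ± 0.13 (adjusted p = 1.8e-09). Rpl5a had 12.39 and 12.47 in ZF4 cells and 8.91 and 8.83 in embryos, a change of 3.56 ± 0.11 (adjusted p = 1.1e-09). Of 86 respiratory chain genes, 75 were higher and 1 (ndufaf2) was lower (0 without ZF4 replicate 2 or embryo replicate 1), with a median change of 2.01. Ndufa6, a subunit of complex I, had 10.61 and 10.54 in ZF4 cells and 5.47 and 5.76 in embryos, a change of 4.96 ± 0.24 (adjusted p = 2.0e-08). Cox6b1, of cytochrome oxidase, was at least 54.4-fold higher. Of 42 proteasome genes, 38 were higher and 1 was lower, the 1 being psmc3ip, which is named for a proteasome subunit but acts in meiotic recombination. Psmb6, a catalytic subunit, had 11.64 and 11.61 in ZF4 cells and 6.79 and 7.52 in embryos, a change of 4.47 ± 0.22 (adjusted p = 2.4e-08). Of 64 translation factors, 40 were higher and 13 were lower. Because arrays were scaled to each other before deposit, these are shares of the measured RNA, not amounts per cell.

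**Figure D4:**
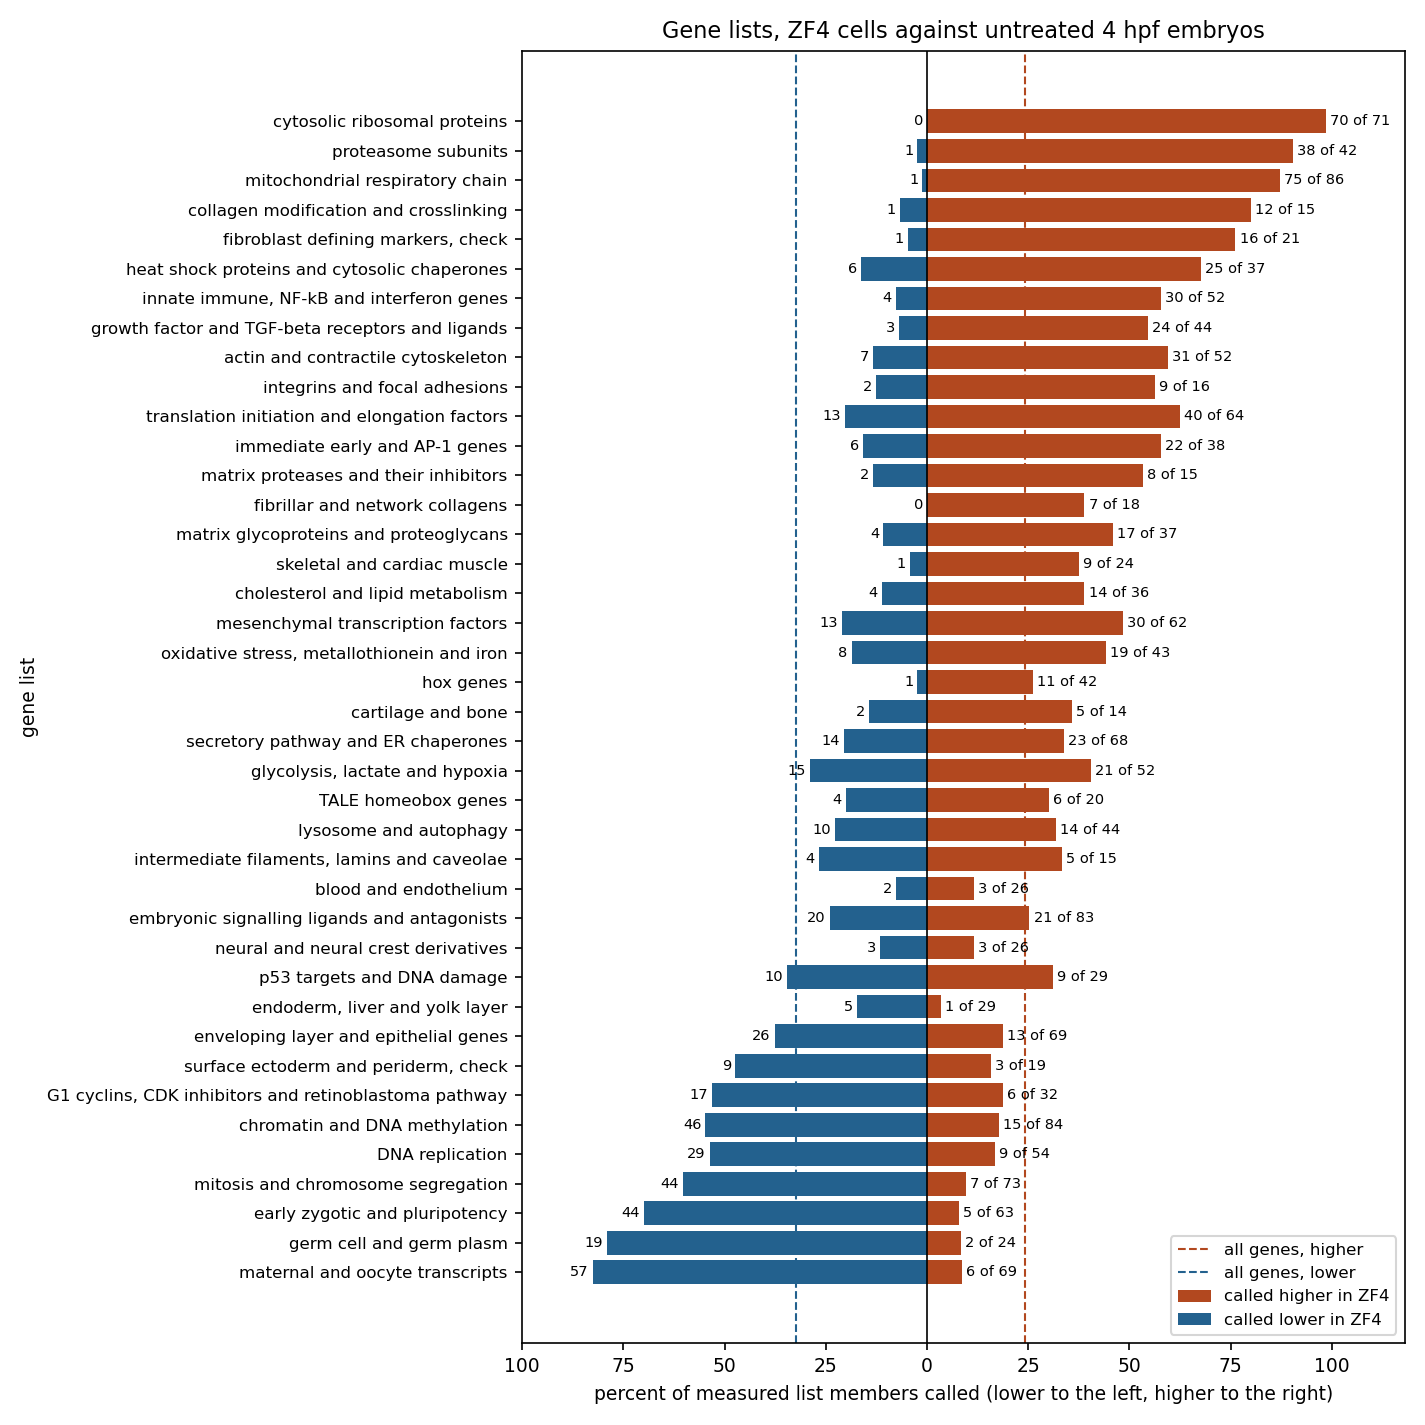
Percent of measured members called higher (right) and lower (left) in ZF4 cells relative to untreated 4 hpf embryos for 40 gene lists, with counts at the bar ends and the shares over all 8793 genes (24.3% higher and 32.4% lower) as dashed lines. Ribosomal, proteasome and respiratory chain genes are at the top and germ cell and maternal transcripts at the bottom.

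Transcripts of the egg made up the other pole. Of 69 maternal and oocyte transcripts, 57 were lower in ZF4 cells and 6 were higher. The median change was -4.79, or -3.93 with changes bounded at background. Of the 69, 39 were above background on both embryo arrays but not on both ZF4 arrays. H1m, the linker histone of the egg and early embryo, had 3.87 and 3.38 in ZF4 cells and 13.22 and 12.75 in 4 hpf embryos, at least 205-fold lower (adjusted p = 2.1e-09), the largest bounded decrease among the named genes. The claudin cldnd, a junction protein, had 3.44 and 4.81 in ZF4 cells and 13.04 and 12.77 in embryos, at least 194-fold lower (adjusted p = 4.8e-08). Cth1, a zinc finger protein of the egg, had 1.76 and 2.71 in ZF4 cells and 12.43 and 11.88 in embryos, at least 115-fold lower (adjusted p = 1.1e-07). Zp2.6, a protein of the egg coat, had 2.01 and 5.36 in ZF4 cells and 10.81 and 10.92 in embryos, a change of -7.18 ± 0.72 (adjusted p = 5.8e-06), with 1 ZF4 array just above background. The 6 higher members were pabpc1b, ybx1, histh1l1, kpna2, bub3 and pgrmc1.

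Germ cell genes lay on the same side. Of 24, 19 were lower and 2 (nanos1 and zbtb16a) were higher, with a median change of -4.32 (-3.42 with changes bounded at background). Gtsf1, a piRNA pathway protein, had 1.22 and 1.15 in ZF4 cells and 11.97 and 11.93 in 4 hpf embryos, at least 101-fold lower (adjusted p = 1.3e-12), and its replicates differed by 0.077 in ZF4 cells and 0.040 in embryos. Buc, which organises germ plasm in the oocyte, had 2.63 and 3.96 in ZF4 cells and 11.61 and 10.60 in embryos, at least 55.7-fold lower (adjusted p = 6.2e-07). The germ cell genes ddx4 (vasa) and nanos3 were at least 23.0-fold and 31.6-fold lower, and the chemokine receptor gene cxcr4b at least 21.5-fold lower.

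**Figure D5:**
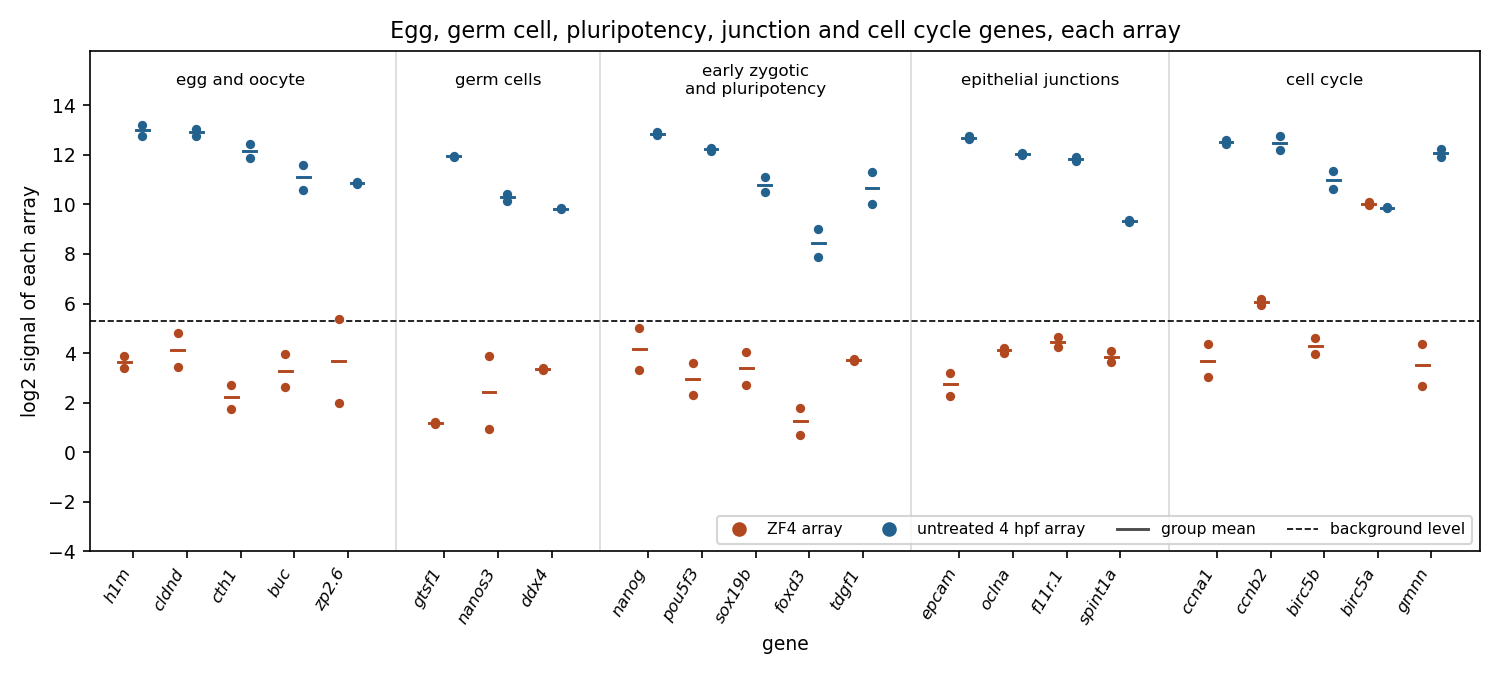
Log2 signal of each array for genes of the egg, germ cells, pluripotency, epithelial junctions and cell cycle, with ZF4 arrays (left of each pair, n = 2) and untreated 4 hpf arrays (right, n = 2), bars at group means and the background level dashed. ZF4 values lie at or below background for all genes shown except zp2.6 on 1 array, ccnb2 and birc5a, and birc5a lies close to the embryo values.

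Pluripotency and early zygotic genes were mostly lower in the line. Of 63, 44 were lower and 5 (klf4, mycn, mycb, her9 and tfap2a) were higher, and the 5 became 2 without embryo replicate 1 and 3 without ZF4 replicate 1 or without the intensity trend. Nanog had 3.32 and 5.03 in ZF4 cells and 12.79 and 12.91 in 4 hpf embryos, at least 187-fold lower (adjusted p = 2.3e-08). Pou5f3 had 3.60 and 2.31 in ZF4 cells and 12.17 and 12.27 in embryos, at least 121-fold lower (adjusted p = 1.6e-09). Sox19b, the maternal SoxB1 factor that acts with them, had 2.71 and 4.05 in ZF4 cells and 11.09 and 10.49 in embryos, at least 44.9-fold lower (adjusted p = 3.0e-08). All 3 were at or below background on both ZF4 arrays. Tdgf1, the Nodal coreceptor, was at 3.74 and 3.69 in ZF4 cells and 10.03 and 11.29 in embryos, at least 41.0-fold lower (adjusted p = 5.3e-08). The mesodermal T-box gene tbx16 was at 3.61 and 4.90 in ZF4 cells and 6.87 and 11.12 in embryos, a call lost without embryo replicate 2. Its embryo replicates differed by 4.25 log2 units.

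Levels at 9 hpf are given as a description, since these arrays were not tested against ZF4 cells. Among the 15 named genes with the largest decreases, cth1, cldnd, map1lc3c and ccna1 averaged 4.71, 5.58, 6.13 and 6.22 in untreated 9 hpf embryos. Pou5f3, epcam, gtsf1 and gmnn averaged 11.40, 11.28, 10.64 and 10.55 there. Among the 15 with the largest increases, serpinh1b and tagln2 averaged 11.27 and 11.16 at 9 hpf, close to their ZF4 values, while clu (clusterin), krt18b and mhc1ufa averaged 2.41, 2.69 and 0.29, all below background. Outside these 15, cdh2, crtap, fn1a and krt8 averaged 11.10, 10.29, 10.98 and 12.56 at 9 hpf, close to or above their ZF4 values. Col1a1a, col5a2a and actn1 averaged 5.53, 3.50 and 5.08 there, far below theirs. How many genes followed each course was not counted.

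Of 83 embryonic ligands, antagonists and pathway genes, 21 were higher (25.3%) and 20 were lower (24.1%). Over all genes these shares were 24.3% and 32.4%, so the list as a whole did not stand out. At or below background in both groups were 27 of the 83. Gdf3 (Vg1), a maternal TGF-beta ligand, had 2.30 and 1.57 in ZF4 cells and 12.07 and 11.67 in 4 hpf embryos, at least 95.1-fold lower (adjusted p = 1.1e-09). Wif1 and dkk3b, a secreted Wnt inhibitor and a relative of the Dickkopf inhibitors, were at least 14.4-fold and 23.9-fold higher. In the retinoic acid pathway, the degrading enzyme gene cyp26a1 had 2.19 and -0.95 in ZF4 cells and 9.21 and 9.36 in embryos, at least 15.8-fold lower (adjusted p = 1.0e-06). Its paralogue cyp26b1 had 7.83 and 8.02 in ZF4 cells and was at or below background on both embryo arrays, at least 6.16-fold higher (adjusted p = 4.1e-05). The synthesising enzyme gene aldh1a2 had 7.60 and 7.65 in ZF4 cells and 4.02 and 4.37 in embryos, at least 5.01-fold higher (adjusted p = 3.0e-06), and the binding protein gene crabp2b had 9.24 and 9.60 in ZF4 cells and 2.79 and 6.88 in embryos, a change of 4.59 ± 1.01 (adjusted p = 0.0023).

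Cell division genes were mostly lower in ZF4 cells. Of 73 genes of mitosis and chromosome segregation, 44 were lower and 7 were higher (4 without embryo replicate 2), with a median change of -1.10. Ccna1, the maternal cyclin A, had 4.36 and 3.05 in ZF4 cells and 12.60 and 12.42 in 4 hpf embryos, at least 148-fold lower (adjusted p = 1.4e-08). Ccnb2, a mitotic cyclin, had 6.20 and 5.95 in ZF4 cells and 12.76 and 12.19 in embryos, a change of -6.40 ± 0.19 (adjusted p = 7.7e-10). Ccna2 and ccnb1 changed less, by -3.08 ± 0.17 and -2.80 ± 0.13, and stayed well above background in ZF4 cells at 9.24 and 8.90 and 10.34 and 10.25. The gene of the kinase that these cyclins activate, cdk1, was higher, at 10.33 and 10.28 in ZF4 cells and 8.83 and 8.59 in embryos (change 1.59 ± 0.16, adjusted p = 5.8e-06). Of 54 DNA replication genes, 29 were lower and 9 were higher. Gmnn (geminin), which blocks relicensing of origins, had 4.37 and 2.66 in ZF4 cells and 12.22 and 11.90 in embryos, at least 108-fold lower (adjusted p = 1.3e-08), and its target cdt1 had 8.60 and 8.66 in ZF4 cells and 11.68 and 11.45 in embryos, a change of -2.94 ± 0.13 (adjusted p = 1.1e-08). The licensing factor gene cdc6 changed by -5.03 ± 0.17 (adjusted p = 1.6e-09). Of 32 genes of G1 cyclins, CDK inhibitors and the retinoblastoma pathway, 17 were lower and 6 were higher (3 without ZF4 replicate 2 and 10 against retinoic acid embryos). Ccne1, cyclin E, had 6.45 and 6.81 in ZF4 cells and 11.63 and 11.86 in embryos, a change of -5.12 ± 0.19 (adjusted p = 2.9e-09).

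Chromatin genes were lower more often than higher, 46 of 84 against 15. Besides h1m, the Polycomb genes cbx2 and phc2a were lower: cbx2 had 6.99 and 6.73 in ZF4 cells and 10.65 and 11.15 in 4 hpf embryos, a change of -4.04 ± 0.17 (adjusted p = 6.8e-09), and phc2a had 7.92 and 7.72 in ZF4 cells and 11.48 and 11.03 in embryos, a change of -3.43 ± 0.19 (adjusted p = 5.4e-08). Macroh2a2, a histone variant of silent chromatin, had 9.95 and 9.69 in ZF4 cells and 5.67 and 5.59 in embryos, a change of 4.19 ± 0.27 (adjusted p = 1.5e-07). The linker histone gene h1-10 had 11.15 and 11.04 in ZF4 cells and 4.88 and 3.45 in embryos, at least 55.4-fold higher (adjusted p = 3.2e-06), opposite to h1m.

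A list of 36 pairs of genes with related functions was drawn up, of which 25 had both members measured. Some set an egg or embryo gene beside a relative widely used in other cells. Others were of different kinds, such as the actins actb2 and acta2 or the proteasome subunits psmb5 and psmb8a. In 7 pairs the members were called in opposite directions, in 5 both were lower, in 1 both were higher, and in 12 at least 1 member was not called. Cdh1 entered the 7 with both cdh2 and cdh11, and the 7 also hold gapdhs with gapdh. No share for other pairs of genes was set beside these counts. In the cap-binding pair of translation initiation, eif4e1b was at or below background on both ZF4 arrays and had 9.66 and 9.67 in 4 hpf embryos, at least 20.6-fold lower (adjusted p = 1.1e-08). Its relative eif4ea had 9.81 and 9.93 in ZF4 cells and 7.55 and 6.54 in embryos, a change of 2.83 ± 0.28 (adjusted p = 4.7e-06). In the replicative helicase pair the embryonic mcm6l was at least 27.3-fold lower and mcm6 higher, though at 5.75 and 5.77 in ZF4 cells mcm6 was close to background. Survivin forms differed too: birc5b had 4.60 and 3.98 in ZF4 cells and 11.35 and 10.61 in embryos, at least 51.1-fold lower (adjusted p = 2.2e-07), while birc5a had 10.08 and 9.96 in ZF4 cells and 9.89 and 9.84 in embryos and was not called (adjusted p = 0.37). Among poly(A)-binding proteins pabpc1l was at least 29.6-fold lower (adjusted p = 5.2e-07). Pabpc1a had 12.25 and 12.30 in ZF4 cells and 12.16 and 12.21 in embryos by its brightest probe set, which was not called. Its other probe sets were called higher, with changes of 0.51 ± 0.13 and 1.79 ± 0.23. The 2 topoisomerase II genes gave a pair of another kind: top2b had 9.53 and 9.51 in ZF4 cells and 4.29 and 4.20 in embryos, at least 18.6-fold higher (adjusted p = 1.1e-08), and top2a had 5.96 and 6.54 in ZF4 cells and 5.93 and 4.27 in embryos and was not called (adjusted p = 0.080), though it was without embryo replicate 1. The 5 probe sets of top2b disagreed, some being called higher and some not called. Each member was tested on its own, and levels of different probe sets were not compared.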

How the data were processed

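Total RNA of 14 samples was hybridised to single-colour Affymetrix Zebrafish arrays. The authors deposited log2 signals, which per their methods were background-corrected (mas5) and normalized by invariant set with the R affy package. How probes were summarised is not given in the sources used here, and no genome build applies. Signals are relative within a scaled array, so only changes of 1 probe set between arrays were compared. From the deposited log2 values, 7 group means over 14 arrays were fitted with limma 3.58.1 in R 4.3.3, with an intensity trend and Benjamini-Hochberg adjustment over 15502 probe sets (two-sided, threshold 0.05), and ± is the standard error. The number of arrays (2 per group) limits the precision. The script was tested on simulated data. Of the probe sets, 10795 named 1 gene, 135 several and 4572 none, by GEO's platform annotation. A gene with several probe sets was represented by the one with the highest mean over all arrays (37 genes had probe sets called in opposite directions). The members and 40 gene lists were chosen with earlier results of these data known. A naming rule picked the 15 largest bounded changes each way among called, non-overlapping genes and up to 6 called members per list. It also picked members of the listed pairs and hox genes above background on both ZF4 arrays. The text does not discuss all of these. Those left out include icn (at least 135-fold higher) and acp5a (at least 127-fold lower). Other genes in the text were chosen after their values were seen. Alternatives were the 4 arrays alone, quantile normalization, a common median, log2 of the signal plus 32, a background filter, no trend, a replicate block, retinoic acid embryos as the reference and each array left out. ZF4 and untreated 4 hpf arrays are not described in the study's methods, so the labels were followed.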

Additional observations from a re-analysis of the deposited data

How the results depend on the processing

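Every count over all probe sets stayed within 1.5 times its value of 7930 called. The replicate block, used as a check although same-numbered arrays of the 2 groups share only a number (their deviations from the group means correlated at 0.123), gave 7890 called probe sets. Among genes discussed, the block ended the call of hoxd13a and added a call of krt18a.1. It also added a call of fn1b (adjusted p = 0.047), a fibronectin gene not discussed above. Fn1b lay near background and was not called without the block (adjusted p = 0.084). Leaving out 1 array each gave 6626 to 7191, lowest without ZF4 replicate 2. The other settings gave 7547 (probe sets above background only) to 8427 (retinoic acid 4 hpf embryos in place of untreated). The naming rule picked 259 genes. Of these, 0 of the 241 that were called and 7 of the 18 that were not (cldn5a, hmga1a, ldhbb, mych, pabpc1a, slc2a3a and smc1al) changed sign under at least 1 alternative. Of the 241 called, 17 lost the call under at least 1 alternative, among them lmnb2, zfp36l1a, cav3, kdrl, tpm4b, myf5 and hoxc9a. The background filter left 237 of the 241 to be tested, and genes it removed were not counted as losses. With 2 arrays per group and a signal near the background level of 5.30, the size of a change is poorly fixed, and 402 called probe sets were at background in both groups.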
